A study of Mus musculus with 6 samples.

Results

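Maternal messenger RNAs that an oocyte stores are kept, masked and later translated or destroyed with the help of a small group of RNA-binding proteins, and 10 genes for such proteins are described here. They were taken by gene symbol from the count table and are Cpeb1, Cpeb2, Cpeb3, Cpeb4, Ybx2, Zar1, Zar1l, Eif4e1b, Pabpc1l and Dazl. All 10 were present among 18649 named genes, and all 10 passed the filter on low counts. The study profiled poly(A) RNA of mouse embryos at the 2-cell stage by sequencing, with 3 arsenite libraries, whose embryos were in G1-PLUS medium containing sodium arsenite at 5 µM, and 3 control libraries, labelled 0 µM. Sodium arsenite is a salt of trivalent arsenic that provokes oxidative and proteotoxic stress. No strain, age or genotype is given in the labels, and neither is the length of exposure or the number of embryos behind a library.

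Library totals lay between 7754037 and 8515078 counts. Nothing in the labels ties a replicate to a culture of its own, so each p-value speaks only to library-to-library spread, which could be technical. Of 12582 genes tested with edgeR (quasi-likelihood test, with p adjusted by Benjamini and Hochberg and a threshold of 0.05), 1187 rose and 914 fell with arsenite, so that 56.5% of calls were higher. That split was 46.5% with library size as the only scaling, and a fit that blocked on the replicate number gave 1682 genes that rose and 1586 that fell. Markers of the labelled stage were present in each library: 9 listed 2-cell genes, among them the Zscan4 family, summed to between 1253 and 3055 CPM (counts per 1000000 counts, scaled by TMM) in arsenite libraries and between 645 and 835 CPM in control libraries.

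In a growing oocyte many messenger RNAs carry short poly(A) tails and are silent. CPEB1 binds the cytoplasmic polyadenylation element (CPE), a U-rich motif in the 3′ untranslated region, and holds such messages silent or, once phosphorylated, promotes the lengthening of their tails. Long tails are bound by poly(A)-binding proteins, which work with the cap-binding complex in translation. Most maternal messages are then cleared around the 2-cell stage, when the embryonic genome becomes active.

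The genes for the factors can themselves carry the element. CPEs, searched as TTTTAT and TTTTAAT on the transcript strand, lay in the annotated 3′ untranslated region of 6 of the 10 genes in GENCODE M21 (build mm10). The share of all tested genes with a CPE anywhere in this region was not summarised, so that count has no background beside it. The CPE nearest the transcript end is shown for each of these 6, in the letters of the messenger with T for U and with the element in capitals, because this is the site type that CPEB proteins read.
Dazl (chr17:50279752-50279781, minus strand): aagtcaaaattcTTTTATgtcaccaagtca
Ybx2 (chr11:69941532-69941561, plus strand): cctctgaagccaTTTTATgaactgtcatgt
Cpeb1 (chr7:81347257-81347286, minus strand): cttgacttttctTTTTAATttaacgattac
Cpeb2 (chr5:43289554-43289583, plus strand): taatttagtttaTTTTATtgttatcttcca
Cpeb3 (chr19:37021506-37021535, minus strand): ggaataaattaaTTTTATgatgctaattct
Cpeb4 (chr11:31935406-31935435, plus strand): gggtaattcattTTTTATtaaagtcatttt
Cpeb2 held 24 such elements in 3778 bases of 3′ untranslated region, Cpeb4 17 in 4102 bases, Cpeb3 6 in 3569 bases, Dazl 6 in 1852 bases and Cpeb1 4 in 1315 bases. Ybx2 held 1, in 414 bases. Eif4e1b, Pabpc1l, Zar1 and Zar1l held none in 1055, 499, 146 and 14 bases. Within the last 150 bases of the message Ybx2 was the only one of the 8 genes with a full window to hold a CPE, and 25.5% of 10961 tested genes did. Ybx2 had no poly(A) signal (AATAAA or ATTAAA) in its annotated 3′ untranslated region. The other 7 of these 8 genes had one in that window, as did 83.5% of the tested genes. Of the 3 genes that rose with arsenite, Eif4e1b and Pabpc1l had no match anywhere in the 3′ untranslated region, and Dazl had its nearest match 373 bases from the transcript end.

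Of the 10 factors, 3 rose with arsenite, 0 fell and 7 did not pass the test. Over all tested genes 9.43% rose and 7.26% fell. The 3 that rose were Eif4e1b, Pabpc1l and Dazl, which encode a cap-binding protein, a poly(A)-binding protein and a germline translational regulator. At an unadjusted p under 0.05 edgeR placed 5 factors higher and 0 lower, against 18.2% and 15.8% of all tested genes. DESeq2 and limma-voom also called 3 higher and 0 lower after adjustment. Over all genes DESeq2 called 1747 higher and 1547 lower of 18649 fitted, and limma-voom 1269 and 1086 of 12582. Fold changes were positive for 9 of 10 factors, and for 6566 of 12582 tested genes. That of Cpeb3 changed sign with library size as the only scaling. The median of the factors was 0.85 on the log2 scale, against 0.072 for all tested genes. In 6 of 10 factors each arsenite library lay above each control library, and in 0 each lay below. Such complete separation was found upwards in 21.9% and downwards in 19.7% of all tested genes. Summed over the factors, expression was between 827 and 1141 CPM in arsenite libraries and between 404 and 507 CPM in control libraries. Dazl and Cpeb4 made up most of this sum. Dazl held 39.8% to 49.2% of it in arsenite libraries and 20.4% to 33.8% in control libraries. Cpeb4 held 25.9% to 35.2% and 26.7% to 50.1%. In embryos sequenced in bulk, a change in the number of cells that carry a message and a change in the amount per cell cannot be told apart. As poly(A) RNA was sequenced, a change in tail length and a change in the amount of a message cannot be told apart either.

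**Figure D1:**
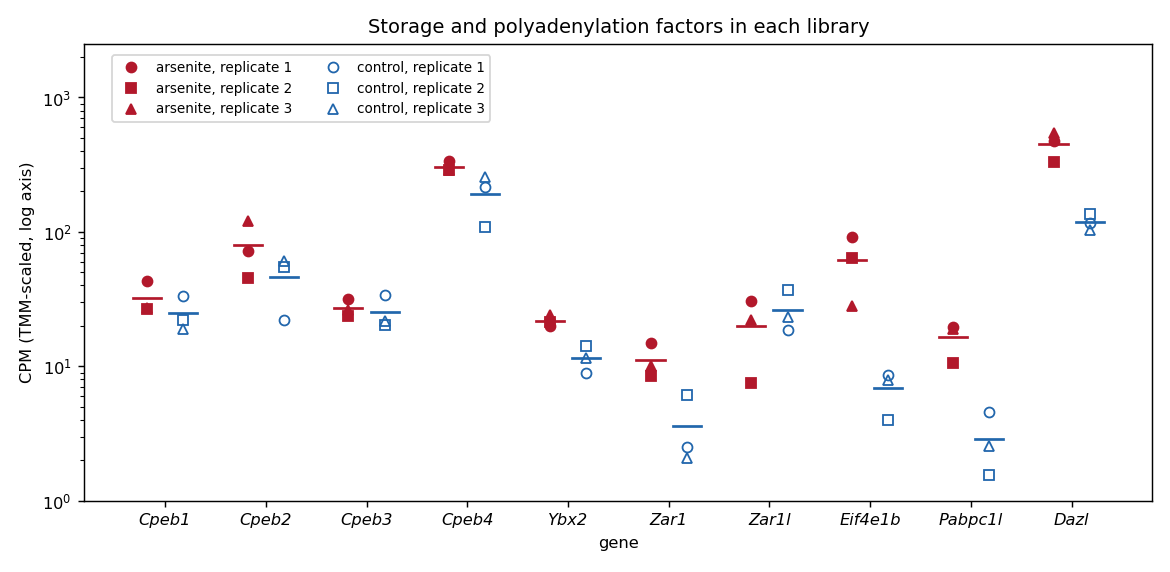
Each point is 1 library, in CPM scaled by TMM on a log axis, with filled symbols for arsenite and open symbols for control and a bar at each group's mean. Eif4e1b, Pabpc1l and Dazl lie apart by the largest folds, while Cpeb1, Cpeb2, Cpeb3 and Zar1l overlap between groups.

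Eif4e1b encodes an oocyte-type relative of the cap-binding protein eIF4E and lies at chr13:54783998-54788459 on the plus strand (gene positions are from GENCODE M21 on mm10). It had 91.7, 64.1 and 28.2 CPM in arsenite replicates 1, 2 and 3, against 8.67, 4.02 and 7.93 CPM in control replicates 1, 2 and 3. The lowest arsenite library was above the highest control. The means were 61.3 ± 31.8 CPM in arsenite libraries and 6.87 ± 2.50 CPM in control libraries (SD, n = 3 each), a ratio of 8.92. Its log2 fold change was 3.16 ± 0.51 (SE; edgeR adjusted p = 0.00579), and it stayed past the threshold with any 1 library left out.

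Pabpc1l encodes the embryonic poly(A)-binding protein that oocytes and early embryos use ahead of the somatic form, and lies at chr2:164025450-164050538 on the plus strand. Its level was 19.7, 10.6 and 19.0 CPM in arsenite replicates 1, 2 and 3 and 4.58, 1.56 and 2.56 CPM in control replicates 1, 2 and 3. These rest on 155, 93 and 130 counts in arsenite libraries and 38, 14 and 21 counts in control libraries. The groups did not overlap, but control counts were low. The log2 fold change was 2.50 ± 0.59 (SE; edgeR adjusted p = 0.0198), with means of 16.4 ± 5.06 CPM in arsenite libraries and 2.90 ± 1.53 CPM in control libraries (SD, n = 3 each). The call was lost without arsenite replicate 1 (log2 fold change 2.31, edgeR adjusted p = 0.0843), without control replicate 2 (2.19, 0.0555) and without control replicate 3 (2.34, 0.0778).

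Both genes have a somatic relative that does the same kind of work in most cells. Eif4e, the general cap-binding protein, had 2185, 2342 and 1797 CPM in arsenite libraries and 2589, 2267 and 1840 CPM in control libraries, and its log2 fold change of -0.082 ± 0.29 did not pass (edgeR adjusted p = 0.867). Pabpc1, the general poly(A)-binding protein, had 224, 199 and 350 CPM in arsenite libraries and 519, 328 and 518 CPM in control libraries. Its log2 fold change of -0.82 ± 0.32 did not pass (edgeR adjusted p = 0.103), but did with the replicate block (adjusted p = 0.0385) and with library size as the only scaling (0.0436).

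Set against its relative in the same library, which needs no scaling between libraries, each member stood higher with arsenite. Per 100 Eif4e counts there were 4.20, 2.74 and 1.57 Eif4e1b counts in arsenite replicates 1, 2 and 3 and 0.335, 0.177 and 0.431 in control replicates 1, 2 and 3. Per 100 Pabpc1 counts there were 8.79, 5.33 and 5.43 Pabpc1l counts in arsenite libraries and 0.882, 0.477 and 0.494 in control libraries. The other pair was Ybx2, the germ cell Y-box protein, against Ybx1, its broadly expressed relative, with 4.74, 3.94 and 5.08 counts per 100 in arsenite libraries and 1.41, 2.14 and 1.65 in control libraries. The groups were separate in all 3 pairs. The mean log2 ratio was higher in arsenite libraries by 3.15, 3.42 and 1.42 for Eif4e1b, Pabpc1l and Ybx2. Ybx1 itself had a log2 fold change of -0.47 ± 0.27 (edgeR adjusted p = 0.230), which enters the ratio of Ybx2. The ratio of Pabpc1l likewise includes the log2 fold change of Pabpc1, -0.82, beside 2.50 for Pabpc1l itself. A two-sided exact permutation test gave p = 0.1 for each, also after adjustment over the 3 pairs, which is the smallest value that 3 libraries against 3 allow. Separate groups fix that value, so the test adds nothing to the separation. These ratios were chosen after the data were seen.

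**Figure D2:**
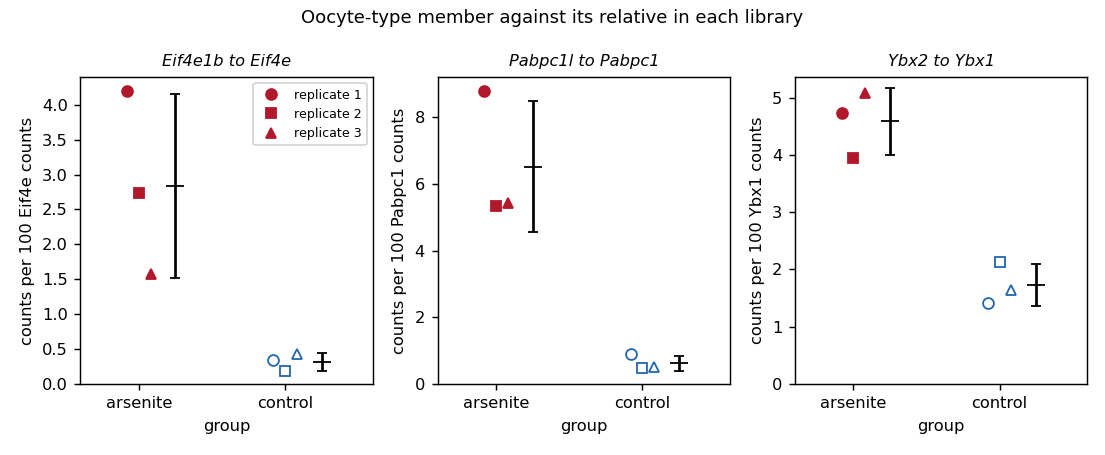
Counts of Eif4e1b, Pabpc1l and Ybx2 per 100 counts of Eif4e, Pabpc1 and Ybx1, with 1 point per library, arsenite left of control, and the mean and SD beside each group. In each panel the 3 arsenite libraries sit above the 3 control libraries, with the spread widest for Eif4e1b relative to its mean, between 1.57 and 4.20.

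Dazl encodes a germ cell RNA-binding protein that promotes translation of stored messages in the maturing oocyte, and lies at chr17:50279395-50293636 on the minus strand. It had 478, 329 and 547 CPM in arsenite replicates 1, 2 and 3 and 116, 137 and 104 CPM in control replicates 1, 2 and 3. Every arsenite library was above every control library. The means were 451 ± 111 CPM in arsenite libraries and 119 ± 16.7 CPM in control libraries (SD, n = 3 each), a ratio of 3.80. Its log2 fold change was 1.93 ± 0.30 (SE; edgeR adjusted p = 0.00552), between 1.75 and 2.03 with 1 library left out and past the threshold each time.

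The storage proteins Ybx2, Zar1 and Zar1l did not pass the test. Ybx2, known in mouse as MSY2, coats and stabilises maternal messages in the oocyte, and its gene lies at chr11:69935796-69941605 on the plus strand. It had 19.8, 21.2 and 24.1 CPM in arsenite replicates 1, 2 and 3 and 8.91, 14.1 and 11.5 CPM in control replicates 1, 2 and 3. The groups did not overlap, with a log2 fold change of 0.92 ± 0.41 (edgeR adjusted p = 0.137). Zar1, an oocyte zinc finger protein needed for the passage from oocyte to embryo (chr5:72576806-72581254, minus strand), was present at 15.0, 8.44 and 10.1 CPM in arsenite libraries and 2.53, 6.14 and 2.07 CPM in control libraries. It too was separate between groups, with a log2 fold change of 1.63 ± 0.62 (edgeR adjusted p = 0.0906). Its control values rest on 21, 55 and 17 counts, and 10.8% of its 100-base stretches also occur in the gene model Gm15847, so its reads could be split between the 2.

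Zar1l, the close relative of Zar1, lies on the same chromosome at chr5:150507055-150518164 on the minus strand. Its level was 30.4, 7.53 and 22.05 CPM in arsenite replicates 1, 2 and 3 and 18.7, 36.9 and 23.4 CPM in control replicates 1, 2 and 3. The groups overlapped and the log2 fold change was -0.40 ± 0.52 (edgeR adjusted p = 0.620). It was the only factor with a negative estimate in the analysis of all libraries.

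None of the 4 CPEB genes passed, and their estimates ranged from 0.11 to 0.79 on the log2 scale. Cpeb4, which was the most abundant of them and acts in meiotic translation in Xenopus (mouse gene at chr11:31872211-31935634, plus strand), had 339, 291 and 288 CPM in arsenite replicates 1, 2 and 3 and 216, 108 and 254 CPM in control replicates 1, 2 and 3. It was separate between groups, with a log2 fold change of 0.67 ± 0.34 (edgeR adjusted p = 0.186). Cpeb2 (chr5:43233170-43289724, plus strand) had 72.0, 45.3 and 120.6 CPM in arsenite libraries and 22.2, 54.5 and 61.2 CPM in control libraries. Its groups overlapped, with the highest value in an arsenite library and the lowest in a control library, and its log2 fold change was 0.79 ± 0.46 (edgeR adjusted p = 0.248).

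Cpeb1, the founding member and the one tied to CPE-driven tail lengthening in the oocyte (chr7:81347026-81455465, minus strand), had 43.4, 26.7 and 27.2 CPM in arsenite replicates 1, 2 and 3 and 33.1, 22.2 and 18.9 CPM in control replicates 1, 2 and 3. Within each numbered pair the arsenite library was higher, but the groups overlapped (log2 fold change 0.39 ± 0.38, edgeR adjusted p = 0.507). Cpeb3 (chr19:37021291-37208601, minus strand) had 31.9, 23.6 and 26.1 CPM in arsenite libraries and 34.0, 20.3 and 21.6 CPM in control libraries, with a log2 fold change of 0.11 ± 0.37 (edgeR adjusted p = 0.865). The groups of Cpeb3 overlapped throughout, and its sign turned without arsenite replicate 1 (-0.058), control replicate 2 (-0.036) or control replicate 3 (-0.065). Antisense genes overlap 1.75% of the exon bases of Cpeb2 (Gm7854) and 1.56% of those of Cpeb3 (A330032B11Rik), and the strand setting of the counting is not given in the sources used here.

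**Figure D3:**
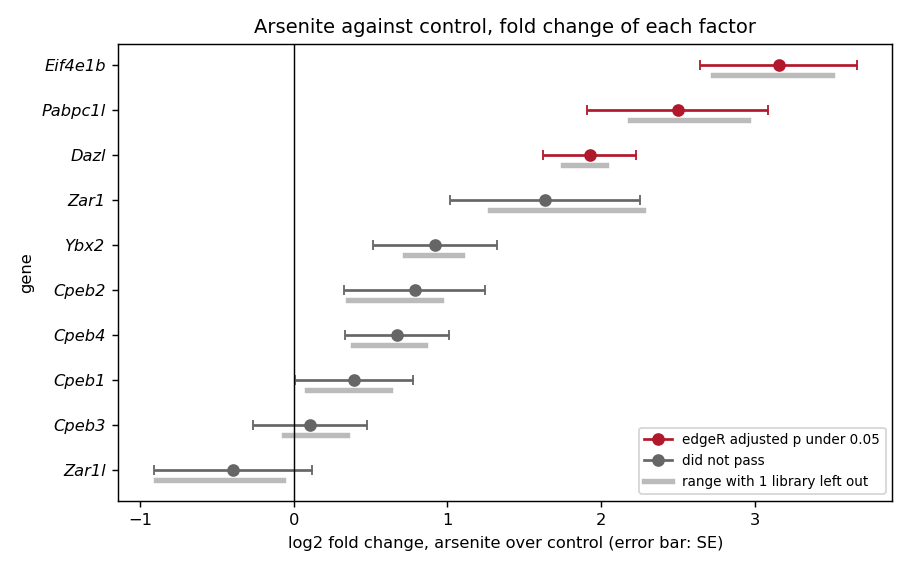
Points are log2 fold changes of arsenite over control with bars of 1 SE, and grey bands span the estimates with each library left out in turn. Eif4e1b, Pabpc1l and Dazl, in red, passed the test at 3.16, 2.50 and 1.93, and the band of Cpeb3 crosses 0.

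Per kilobase of annotated transcript, the order of levels in arsenite libraries was Dazl, Cpeb4, Eif4e1b, Zar1l, Ybx2, Cpeb2, Cpeb1, Zar1, Pabpc1l and Cpeb3. Dazl averaged 151.6 CPM per kilobase, Cpeb4 48.6, Eif4e1b 28.8 and Zar1l 22.3. Dazl and Cpeb4 each stood clear of the next gene, and from Eif4e1b down every neighbouring pair overlapped in its library ranges. In control libraries the order was Dazl, Cpeb4, Zar1l, Cpeb1, Ybx2, Cpeb2, Cpeb3, Eif4e1b, Zar1 and Pabpc1l. There Dazl averaged 39.9 CPM per kilobase, Cpeb4 30.5, Zar1l 29.4 and Eif4e1b 3.22. Only Zar1l stood clear of the next gene, Cpeb1. Eif4e1b therefore held rank 3 of 10 in arsenite libraries and rank 8 in control libraries. The value of Zar1l depends on an annotated transcript of 895 bases with 14 bases of 3′ untranslated region, and no test was made between genes.

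Promoters of 8 of the 10 genes were matched in RefSeq (GRCm38.p6, 250 bases before to 50 after the start), and Cpeb2 and Eif4e1b had no entry there. They were searched on both strands for TAATTA or TAATTG, the motif of the oocyte factor NOBOX, and for CANNTG, the E-box read by the oocyte factor FIGLA among others. The promoters of Dazl and Pabpc1l are shown because both genes rose, and that of Zar1l because it holds the NOBOX motif more than once, with matches in capitals. Of 11 promoters listed for these 8 genes, 2 held the NOBOX motif, that of Zar1l and 1 of the 3 listed for Cpeb3.
Dazl (chr17:50293571-50293870, minus strand): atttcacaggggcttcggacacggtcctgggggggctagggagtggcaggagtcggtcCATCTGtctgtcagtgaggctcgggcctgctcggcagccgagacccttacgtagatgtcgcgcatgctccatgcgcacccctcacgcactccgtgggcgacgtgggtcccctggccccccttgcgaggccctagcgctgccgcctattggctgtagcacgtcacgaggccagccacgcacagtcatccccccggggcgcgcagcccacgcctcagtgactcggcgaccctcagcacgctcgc
Pabpc1l (chr2:164024974-164025273, plus strand): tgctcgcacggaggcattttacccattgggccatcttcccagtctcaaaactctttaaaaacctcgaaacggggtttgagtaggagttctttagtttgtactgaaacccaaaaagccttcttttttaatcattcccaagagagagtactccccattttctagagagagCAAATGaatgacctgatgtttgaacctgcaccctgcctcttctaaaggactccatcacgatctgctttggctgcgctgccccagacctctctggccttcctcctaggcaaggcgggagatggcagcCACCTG
Zar1l (chr5:150518110-150518409, minus strand): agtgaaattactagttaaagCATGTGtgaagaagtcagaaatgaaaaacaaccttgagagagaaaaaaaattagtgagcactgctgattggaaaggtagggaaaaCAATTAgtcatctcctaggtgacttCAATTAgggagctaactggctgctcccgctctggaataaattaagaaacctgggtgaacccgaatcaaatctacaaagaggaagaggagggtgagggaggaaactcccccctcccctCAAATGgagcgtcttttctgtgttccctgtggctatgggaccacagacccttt
Dazl had 0 NOBOX motifs, 1 E-box and 28 CpG dinucleotides, with a GC content of 68.7%. Pabpc1l had 0 NOBOX motifs, 2 E-boxes and 7 CpG dinucleotides at 49.0% GC. Zar1l had 2 of each motif and 3 CpG dinucleotides at 44.3% GC. The promoters of the 2 genes that rose thus had unlike base composition. Over 32851 RefSeq promoters, 12.4% held a NOBOX motif and 72.3% an E-box, so a lone E-box is common.

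Genes of like pattern were sought for the 3 factors with the highest mean CPM, by Pearson's r of log2 CPM over the 6 libraries among 9016 genes. Arf3 (r = 0.999), Hhex (0.996) and Tubb3 (0.994) were nearest to Dazl, whose values fall into the separate groups, so that r includes the difference between groups. Homer1 (0.995), Dnah7b (0.993) and Lrrc8b (0.992) were nearest to Cpeb4. Ccdc73 (0.987), Ddt (0.985) and Fth1 (0.982) were nearest to Cpeb2. Each r named here is among the highest of 9016 over only 6 libraries, so values near 1 can arise from the search alone. The libraries behind these points share their depth and groups, and no test was made.

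The factors work with a wider machinery, followed in 4 gene lists. Of 94 tested partner genes 18 rose and 6 fell, against 9.43% and 7.26% of all tested genes. Their median log2 fold change was 0.095, against 0.072 for all tested genes. With 1 library left out, between 5 and 14 partner genes were called higher and between 0 and 8 lower. Without arsenite replicate 1 or without control replicate 3, 5 were higher. The list of reported target messages held 9 of the 18 rises.

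Among 20 genes of the polyadenylation machinery 2 rose and 2 fell, against 9.43% and 7.26% of all tested genes. The median was -0.20 on the log2 scale. With the replicate block 3 rose and 4 fell, where of 12582 tested genes 1682 rose and 1586 fell. Tent5c, a non-canonical poly(A) polymerase, rose to 87.1, 47.7 and 88.6 CPM in arsenite replicates 1, 2 and 3, against 21.9, 29.7 and 24.5 CPM in control replicates 1, 2 and 3 (log2 fold change 1.55 ± 0.35, edgeR adjusted p = 0.0182). Papd4, the cytoplasmic poly(A) polymerase GLD2 that partners CPEB1, rose by 1.09 ± 0.28 on the log2 scale (edgeR adjusted p = 0.0249). Papola, the main nuclear poly(A) polymerase, had 275, 252 and 234 CPM in arsenite libraries and 507, 576 and 472 CPM in control libraries, and fell by 1.03 ± 0.26 (edgeR adjusted p = 0.0263). Cpsf1, the largest subunit of the complex that binds the poly(A) signal, fell by 2.06 ± 0.53 (edgeR adjusted p = 0.0263). Each of these 4 calls was lost with some libraries left out, that of Papd4 with any one of the 6 (edgeR adjusted p up to 0.120), and without arsenite replicate 1, control replicate 1 or control replicate 3 the list had 0 calls in either direction.

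Of 33 tested storage and repression partners 6 rose and 2 fell, against 9.43% and 7.26% of all tested genes. The median was 0.27 on the log2 scale. Without arsenite replicate 1, and also without control replicate 3, 2 rose and 0 fell. Stau2, a double-stranded RNA-binding protein of transport granules, had 66.8, 59.7 and 47.6 CPM in arsenite replicates 1, 2 and 3 and 17.5, 10.9 and 9.03 CPM in control replicates 1, 2 and 3 (log2 fold change 2.22 ± 0.38, edgeR adjusted p = 0.00691). Dazap2, a DAZ-associated protein, had 695, 927 and 650 CPM in arsenite libraries and 219, 257 and 109 CPM in control libraries (1.96 ± 0.36, edgeR adjusted p = 0.00888). Both kept their call with any 1 library left out. Zfp36l2, which binds AU-rich elements, rose by 1.79 ± 0.46 (edgeR adjusted p = 0.0272), and Patl1, Ybx3 and Rbpms2 also rose. G3bp1, a core protein of stress granules, fell. The calls of Patl1, Ybx3, Rbpms2 and G3bp1 were each lost without arsenite replicate 1 or 3 and without control replicate 2 or 3. The call of Zfp36l2 was lost without arsenite replicate 1, control replicate 1 or control replicate 3. Ddx6, the RNA helicase of repressed messenger particles, had a log2 fold change of 1.05 ± 0.47 (edgeR adjusted p = 0.141, and 0.0265 with the replicate block), and Lsm14b, its oocyte partner, one of 0.93 ± 0.49 (edgeR adjusted p = 0.200). Ybx1 had -0.47 ± 0.27 (edgeR adjusted p = 0.230).

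Of 21 tested genes of cap and tail binding 1 rose and 2 fell, against 9.43% and 7.26% of all tested genes. The median was -0.25 on the log2 scale. With the replicate block 2 rose and 3 fell, where of 12582 tested genes 1682 rose and 1586 fell. Eif4e2, a cap-binding protein that represses translation, had 47.6, 59.2 and 42.6 CPM in arsenite replicates 1, 2 and 3 and 152, 199 and 118 CPM in control replicates 1, 2 and 3. It fell by 1.65 ± 0.31 (edgeR adjusted p = 0.00974), a call lost without arsenite replicate 1 (adjusted p = 0.0521). Eif4g1, the scaffold that joins cap and tail, fell by 1.08 ± 0.29 (edgeR adjusted p = 0.0308), and Paip1, which binds poly(A)-binding protein, rose by 1.37 ± 0.41 (edgeR adjusted p = 0.0427). Eif4e3 had 1.07 ± 0.36 and did not pass (edgeR adjusted p = 0.0633). It did pass with the replicate block (0.0149), without a filter on low counts (0.0476), with a filter of 1 CPM in all libraries (0.0409), with DESeq2 (0.0402) and with limma-voom (0.0398). The calls of Eif4g1 and Paip1 were lost without arsenite replicate 1 or control replicate 3, among others.

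Of 20 messages reported in oocytes as targets of CPEB1 or DAZL, 9 rose and 0 fell, against 9.43% and 7.26% of all tested genes. The median log2 fold change of the list was 0.82. At an unadjusted p under 0.05 edgeR placed 10 higher and 2 lower, against 18.2% and 15.8% of all tested genes. DESeq2 and limma-voom each called 10 higher and 0 lower after adjustment. Over all genes they called 1747 higher and 1547 lower of 18649 (DESeq2) and 1269 and 1086 of 12582 (limma-voom). Btg4, the adaptor that brings the CCR4-NOT deadenylase to maternal messages, had 3910, 6086 and 3296 CPM in arsenite replicates 1, 2 and 3 and 950, 747 and 478 CPM in control replicates 1, 2 and 3 (2.61 ± 0.38, edgeR adjusted p = 0.00485). Obox5, an oocyte homeobox gene, rose by 2.39 ± 0.35 (edgeR adjusted p = 0.00497), and Wee2, the oocyte kinase that restrains CDK1, by 2.27 ± 0.36 (edgeR adjusted p = 0.00552). These 3 kept their calls with any 1 library left out. Dcp1a, a decapping cofactor, rose to a mean of 174 ± 11.7 CPM in arsenite libraries, against 70.6 ± 11.5 CPM in control libraries (SD, n = 3 each; edgeR adjusted p = 0.0141), a call lost without arsenite replicate 1 or control replicate 3. Cnot7, Cnot6l, Plat, Gdf9 and Trim36 also rose, and these 5 calls were each lost without arsenite replicate 1, control replicate 2 or control replicate 3. With 1 library left out between 3 and 8 of the list were called higher, and without control replicate 2 there were 4 higher and 1 lower.

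**Figure D4:**
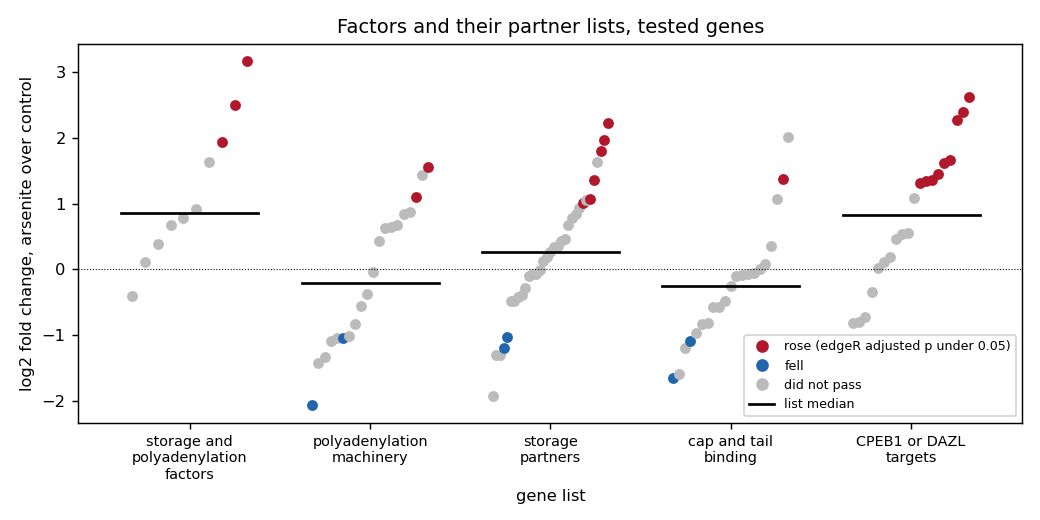
Each point is the log2 fold change of a tested gene, arsenite over control, by list, in red where it rose, blue where it fell and grey where it did not pass, with a line at the list's median. The medians of the 10 factors (0.85) and of the reported targets (0.82) lie above those of the other 3 lists, which range from -0.25 to 0.27.

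Some other markers also rose. Of 9 oocyte and maternal markers 4 rose (Bmp15, Nlrp5, Gdf9 and Zp2) and 5 did not pass. Fold changes were positive for 8 and negative for 1, with a median of 1.35 on the log2 scale. In 4 each arsenite library lay above each control library, and in 1 each lay below, against 21.9% and 19.7% of all tested genes. The 9 markers summed to 2297 to 3227 CPM in arsenite libraries and 539 to 1266 CPM in control libraries. Gdf9 also counts among the reported targets. Of 8 tested 2-cell markers 5 rose, with a median log2 fold change of 1.49 for the 8. The share that rose over all tested genes was 9.43%. The 9 cumulus and granulosa cell markers in the table summed to 11.7 to 17.6 CPM in arsenite libraries and 2.89 to 6.83 CPM in control libraries. Of these, Cyp11a1 had 2.03, 2.62 and 3.36 CPM in arsenite libraries and 0 counts in each control library, and Has2 and Inhba were at 0 in each arsenite library. Among the 4 cumulus and granulosa cell markers that were tested, 1 rose (Cyp11a1) and 0 fell, with a median log2 fold change of 2.82. Sperm markers summed to at most 4.09 CPM in arsenite libraries and 0.732 CPM in control libraries. Later embryo markers summed to 72.9 to 153 CPM in arsenite libraries and 117 to 169 CPM in control libraries. Of the 5 that were tested, 0 rose and 0 fell. Their fold changes were positive for 4 and negative for 1, with a median of 1.78 on the log2 scale. The part of these markers in the values of the factors was not tested.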

How the data were processed

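Per the labels, poly(A) RNA of 2-cell embryos was sequenced after PCR preamplification of cDNA, with no molecular identifiers mentioned, and the protocol text names a pair of library kits. The authors deposited raw whole-number counts of reads, 1 row for each gene symbol. The submitters' processing notes name mm10, STAR, featureCounts 1.6.2, StringTie 2.1.4 and DESeq2 1.30.1 without their roles. Of 18660 rows, 11 whose symbol had become a date (0.0432% to 0.0818% of counts) were left out.

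The test was the two-sided quasi-likelihood test of edgeR 4.0.16 (R 4.3.3), with TMM factors and the default filterByExpr, adjusted by Benjamini-Hochberg over 12582 genes at a threshold of 0.05. The common biological coefficient of variation was 0.495. CPM are scaled by TMM, SE is the absolute log2 fold change over the square root of F, and correlations used log2 CPM with a prior count of 2. Reads are not independent molecules, so a floor of 3 counts (0.335 to 0.438 CPM) covers counting error only. Every pair of libraries differed by more than sampling noise (lowest chi-square per degree of freedom 31.8). The test was checked on simulated data. Length, 3′ untranslated regions and motifs came from the longest protein-coding transcript in GENCODE M21, and promoters from RefSeq.

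Same-numbered libraries deviated together from their group means (r across genes of 0.189, 0.221 and 0.178, against -0.164 to -0.0238 for other pairs). Deviations cancel within a group, so positive r for same-numbered libraries by itself pushes the r of other pairs below 0. The numbers were read as pairs in the replicate block only. The main test had no term for them, so its p-values leave such pairing out. What a number stands for is not in the labels. Alternatives were other scalings, filters and tests (DESeq2 1.42.0, limma-voom with limma 3.58.1), the replicate block, leaving out the 20 most abundant genes and leaving out each library. The factors, the lists and the rule for named genes (all factors, the 4 smallest p of each partner list, and Pabpc1, Eif4e, Ybx1, Ddx6, Lsm14b, Papd4 and Btg4) were chosen with earlier results of these data known. Marker genes, genes of a list that are named without values and the genes nearest to a factor are named beyond it. A gene that the rule took is not reported here.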

Additional observations from a re-analysis of the deposited data

How the results depend on the processing

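The 3 calls among the factors stood under 8 of 8 alternatives that kept all libraries, and 2 or 3 stood with 1 library left out, with Pabpc1l the one lost. Library size as the only scaling moved the median of all tested genes to -0.049, against 0.072, and Cpeb3 to -0.0032. With 1 library left out Cpeb3 ranged from -0.065 to 0.35 and Eif4e, added later, from -0.27 to 0.023. The cause was not tested. The replicate block called 1586 genes lower and DESeq2 1547, against 914. With 1 library left out, 217 to 930 genes were higher and 180 to 1072 lower, with 217 and 188 without control replicate 3 and 326 and 180 without arsenite replicate 1, where 1 group has only 2 libraries. Partner genes then numbered 5 to 14 higher and 0 to 8 lower. The block changed no call among the factors, and of the named partner genes it changed those of Pabpc1, Ddx6 and Eif4e3. Of 15 partner genes that the naming rule took and that were called, 5 kept it whichever library was left out. Pabpc1l and Zar1 rest on few counts in control libraries.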

Other observations

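Across tested genes with at least 150 bases of 3′ untranslated region, the share with a CPE in the last 150 bases was 29.4% of 1052 genes that rose, 22.8% of 789 that fell and 25.3% of 9120 that did not pass. The mean AT content of the same windows was 64.5%, 60.6% and 62.1% in these 3 sets, so it is ordered like the CPE share, and its part in that share was not tested. The motif TTTGTT, read by DAZL, was held by 16.9%, 15.5% and 17.0% of the windows, and a poly(A) signal (AATAAA or ATTAAA) by 84.6%, 83.8% and 83.4%. No test was made on these shares.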
